A study of Anolis sagrei with 15 samples.

Results

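WNT ligands, receptors and antagonists were described in the posterior globe of the embryonic eye of *Anolis sagrei*, the brown anole. A gene model was taken as a member when its symbol in the count table was that of a WNT, a Frizzled (FZD), LRP5 or LRP6, a secreted Frizzled-related protein (SFRP), a Dickkopf (DKK), WIF1, NOTUM, a KREMEN, an R-spondin (RSPO), LGR4, LGR5 or LGR6, RNF43 or ZNRF3, an AXIN, LEF1 or a TCF7 factor. The rule used names only and no measured value, although it was set with earlier results of these data known. It found 57 gene models under 55 symbols, of 20235 gene models in all. Of the 57, 38 had enough reads to be tested and 19 did not.

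RNA-seq libraries came from the temporal, nasal and central regions of the posterior globe, with 5 libraries from each region. All embryos were at Sanger stage 16.5 and descended from wild-caught anoles of Florida, and no allele or treatment is named for any group. The methods describe pooled embryos of mixed sex. For the annotation they name fewer new eye libraries than are held here, and how those relate to these libraries is not stated. The number of embryos behind each library is thus not known. Nothing says whether libraries with the same replicate number share embryos, so p-values measure the spread between these libraries only. Eye RNA-seq served the annotation of gene models in the study and, combined with other data, the calling of sequence variants. No purpose is stated for a comparison of regions.

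WNT proteins are lipid-modified secreted ligands that bind Frizzled receptors. Together with the co-receptors LRP5 and LRP6, the bound receptor halts the destruction complex, which AXIN scaffolds, so that beta-catenin reaches the nucleus and acts through TCF and LEF factors, while other branches of the pathway act without beta-catenin on cell polarity. R-spondins and their LGR receptors protect Frizzled from the ubiquitin ligases RNF43 and ZNRF3, and SFRP, DKK, WIF1 and NOTUM proteins restrain the ligand or its co-receptor. In the vertebrate eye the pathway is known for its roles in the ciliary margin, the pigment epithelium and the retinal vessels.

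Levels are given as CPM, the counts per 1e+06 counted reads, with the read total of each library multiplied by its TMM scaling factor. They carry no correction for gene length, so they were compared between libraries and not between genes. The temporal libraries held 15177438 to 24688374 counted reads, the nasal libraries 18365334 to 25166494 and the central libraries 15712525 to 27035312. The library labelled central replicate 4 stood apart, with 5241 gene models at 0 reads against 1618 to 2744 in the other 14 libraries of the table. Among the members it held 0 reads for all 19 untested gene models and for 7 tested ones (KREMEN2, LEF1, LGR6, NOTUM, WNT16, WNT5B and WNT9A), and no other library had a tested member at 0. In that library 0 reads allow up to 0.191 CPM before the TMM factor (3 reads), counting error only. The temporal markers FOXD1 and EPHA3 summed to 124.3 to 168.2 CPM in temporal libraries, 7.57 to 11.8 CPM in nasal libraries and 45.6 to 59.4 CPM in central libraries, and these levels fit the labels. All 10 tested gene models of the retinal neuron list were detected in each region, such as STMN2 with 193.1 ± 10.2, 191.8 ± 7.9 and 179.0 ± 12.2 CPM in temporal, nasal and central libraries (SD, n = 5 each).

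The 7 members that passed the test in at least 1 contrast were RSPO2, LGR4, WIF1, SFRP1, WNT5B, WNT10A and AXIN1. RSPO2 and the antagonist WIF1 were lower, and the R-spondin receptor LGR4 higher, in both the temporal and the nasal libraries than in the central ones. Relative to the central region, nasal libraries had more of the ligand WNT5B and less of the antagonist SFRP1 and the ligand WNT10A. AXIN1 was higher in the nasal libraries than in those of either other region. The test was the quasi-likelihood one of edgeR, adjusted by the Benjamini-Hochberg method over all 15910 tested gene models, and an adjusted p under 0.05 counted as passing. Both contrasts against the central region share the central libraries.

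For temporal minus central, 3 of 38 members passed (7.89%), 1 higher and 2 lower, where 6.78% of all gene models tested passed (3.24% higher and 3.53% lower). For nasal minus central, 7 of 38 passed (18.4%), 3 higher and 4 lower, against 18.4% of all gene models (7.94% higher and 10.4% lower). For temporal minus nasal, 1 of 38 passed (2.63%), which was lower, against 6.59% of all gene models (4.4% higher and 2.19% lower). In this fit of all 15 libraries, which ignored the replicate numbers, the members' shares were thus near or below the background. The median log2 fold change of the 38 members was 0.09 for temporal minus central, 0.05 for nasal minus central and 0.01 for temporal minus nasal, against 0.01, 0.03 and -0.01 for all gene models tested.

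Deviations from the region means ran together in libraries of the same replicate number, so each contrast was also fitted with that number as a block. With the block, 7 of 38 members passed for temporal minus central (18.4%, against 12.7% of all gene models), 12 for nasal minus central (31.6%, against 27.9%) and 3 for temporal minus nasal (7.89%, against 13.9%). The 6 members that passed with the block, but not in the fit of all libraries without it, were DKK3 (ANOSAT000829), FZD3, FZD7, LGR5, NOTUM and SFRP2 (ANOSAT013021). A single library also moved these counts. Without central replicate 4 and without the block, 8 of 39 members passed for temporal minus central (20.5%, against 7.36% of all gene models), 11 for nasal minus central (28.2%, against 20.6%) and 4 for temporal minus nasal (10.3%, against 9.24%).

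**Figure D1:**
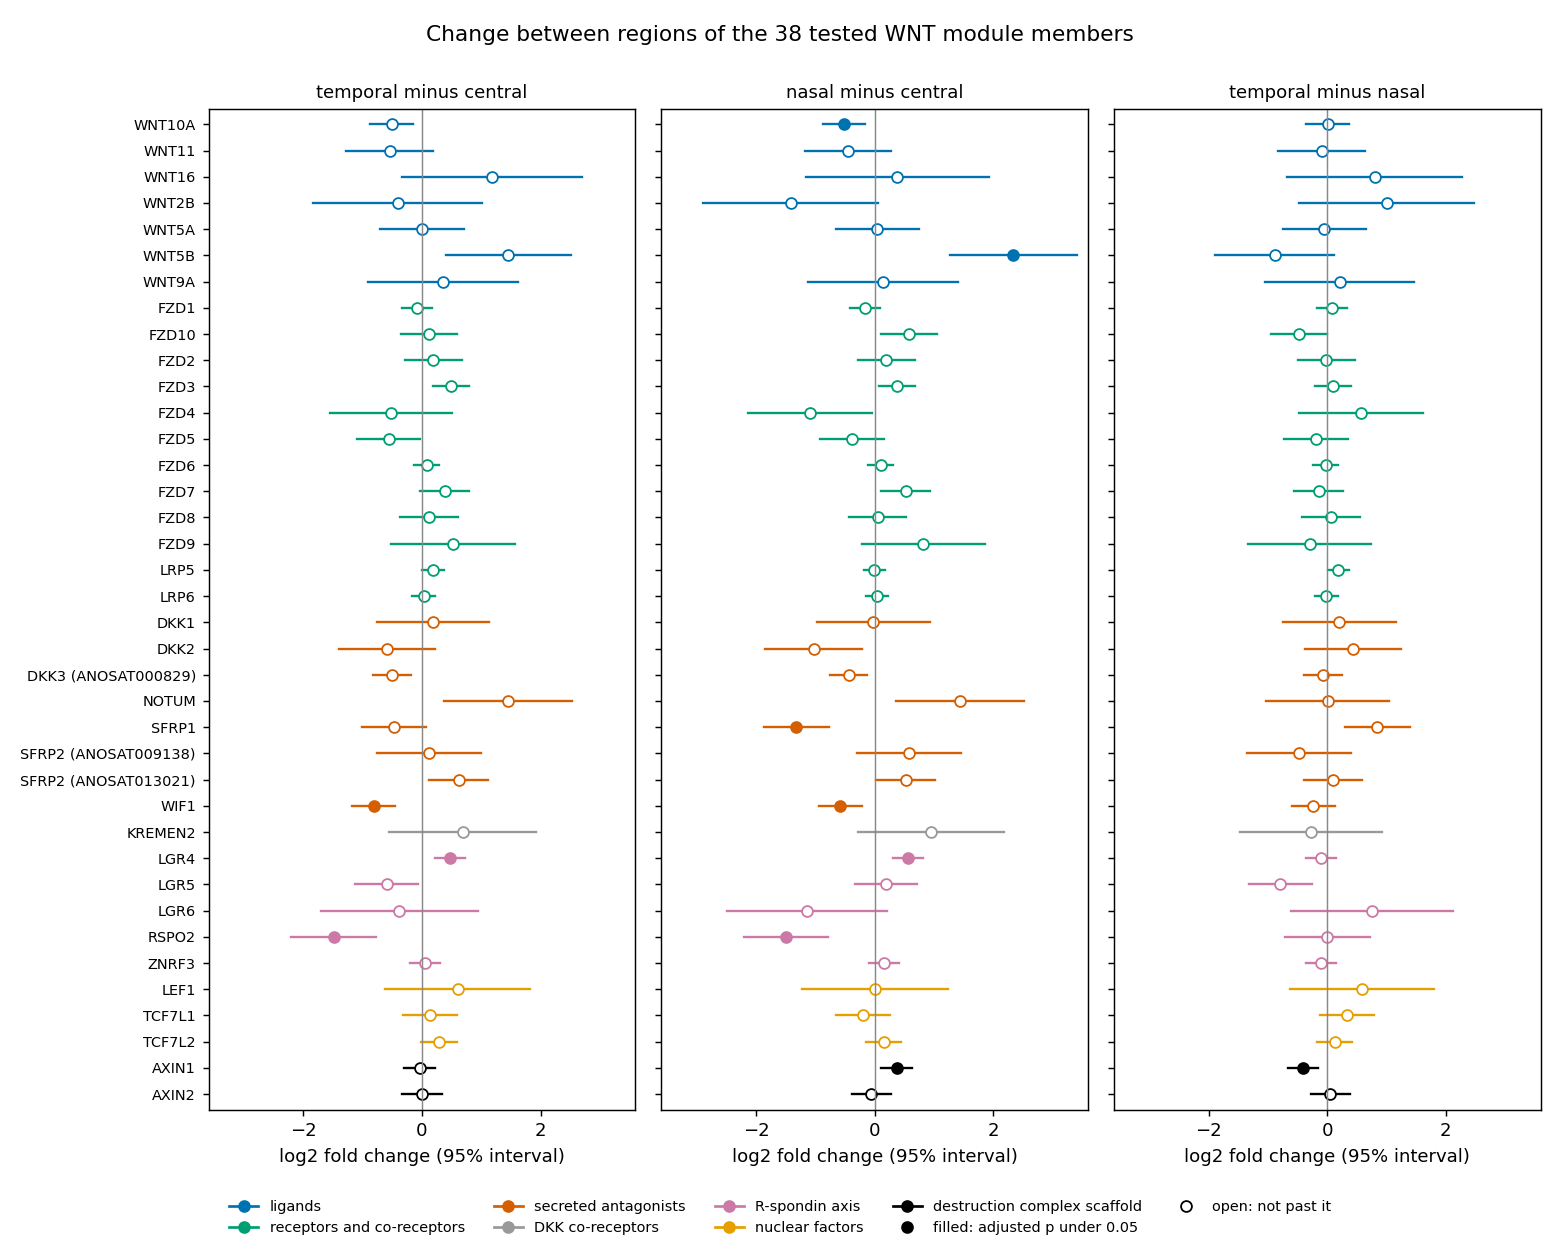
Log2 fold change (x axis) with its 95% interval for each of the 38 tested members (y axis, by role) in the 3 contrasts. Filled points passed an adjusted p of 0.05; 3 are filled for temporal minus central, 7 for nasal minus central and 1 for temporal minus nasal, and all 12 receptors and co-receptors are open.

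Among the ligands, 7 of 18 gene models were tested. None passed for temporal minus central or temporal minus nasal, and WNT5B and WNT10A passed for nasal minus central. WNT5B, which acts mostly without beta-catenin, had 1.054, 2.07, 2.5, 2.08 and 1.57 CPM in temporal replicates 1 to 5. Its nasal libraries had 3.38, 2.55, 3.55, 3.6 and 4.09 CPM, against 0.668, 1.0, 0.999, 0 and 0.635 CPM in the central libraries. Every nasal library lay above every temporal one, and every temporal library above every central one. For nasal minus central WNT5B rose by 2.34 on the log2 scale (SE 0.51, 5.07-fold, edgeR adjusted p = 0.00285). For temporal minus central the log2 fold change was 1.46 (adjusted p = 0.101), and for temporal minus nasal it was -0.88 (adjusted p = 0.365). Without central replicate 4, where WNT5B had 0 reads, all 3 contrasts passed in edgeR, with log2 fold changes of 1.16 (adjusted p = 0.0216), 2.04 (adjusted p = 7.75e-05) and -0.88 (adjusted p = 0.0414) for temporal minus central, nasal minus central and temporal minus nasal.

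WNT10A, a ligand of the beta-catenin branch, had 8.57, 9.19, 8.94, 8.96 and 7.81 CPM in the temporal libraries. The nasal libraries had 8.32, 10.2, 6.94, 8.68 and 9.13 CPM, against 9.85, 13.95, 12.3, 16.6 and 9.13 CPM in the central libraries. Central replicates 2, 3 and 4 were above all other libraries, and the other central libraries overlapped the temporal and nasal ones. WNT10A fell by 0.52 on the log2 scale for nasal minus central (SE 0.17, edgeR adjusted p = 0.0444), while the change for temporal minus central, -0.51, had an adjusted p of 0.0942 (0.0504 with the block). The nasal call was lost in 13 of 24 alternatives. Single libraries ended it when temporal replicates 1, 2 or 3, nasal replicates 1, 3, 4 or 5, or central replicates 2, 3 or 4 were left out (highest adjusted p = 0.109, and 0.0881 with a change of -0.39 when central replicate 4 was left out).

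The other tested ligands were WNT2B, WNT5A, WNT9A, WNT11 and WNT16, and none passed. WNT2B, a ligand made in the ciliary margin of the chick eye, averaged 1.18 ± 0.93 CPM in temporal, 0.588 ± 0.494 CPM in nasal and 1.56 ± 0.81 CPM in central libraries (SD, n = 5 each), with a lowest edgeR adjusted p of 0.187, for nasal minus central. WNT11 averaged 1.57 ± 0.37, 1.68 ± 0.51 and 2.30 ± 0.82 CPM in temporal, nasal and central libraries (SD, n = 5 each). WNT16 averaged 0.684 ± 0.473, 0.393 ± 0.181 and 0.291 ± 0.214 CPM in the same order (SD, n = 5 each). The values of these ligands overlapped between regions. WNT2B passed when the block was used and central replicate 4 was left out (lowest edgeR adjusted p = 0.0316), and in none of the other alternatives.

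The 11 untested ligands had between 3 and 99 reads each over all 15 libraries. They were WNT1 (32 reads), WNT3 (13), WNT3A (19), WNT4 (15), WNT6 (3), WNT7A (52), WNT7B (52), WNT8A (16), WNT8B (24), WNT9B (79) and WNT10B (99). WNT9B had 57 reads in the temporal, 16 in the nasal and 6 in the central libraries, and 4 libraries had none. WNT1 had 8, 23 and 1 reads in the temporal, nasal and central libraries, and WNT7A had 32, 13 and 7. At these counts a difference between regions was not detectable under the filter used. Several ligand genes neighbor each other in the RefSeq annotation of the species (WNT6 with WNT10A, WNT10B with WNT1, WNT9B with WNT3, and WNT3A with WNT9A), and in all 4 pairs the partners differed in reads, such as 3 for WNT6 and 3045 for WNT10A.

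**Figure D2:**
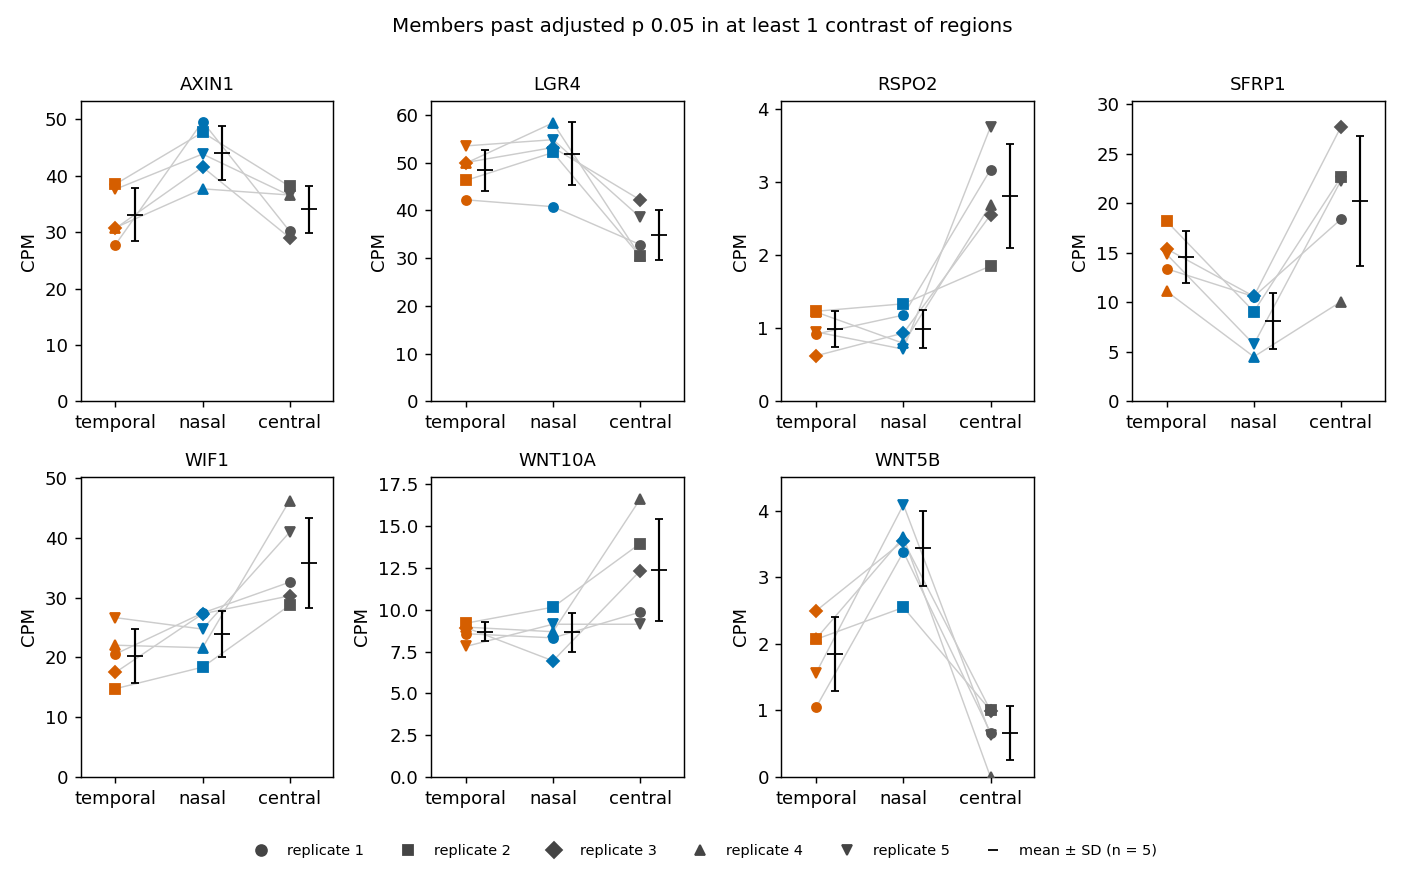
CPM of the 7 members past an adjusted p of 0.05 in at least 1 contrast (y axis, from 0) in the temporal, nasal and central libraries (x axis). Points are libraries, with a shape for each replicate number and grey lines between libraries of the same number, and bars are the mean ± SD (n = 5). WNT5B steps down from nasal to temporal to central libraries without overlap, while RSPO2 and WIF1 are highest in the central libraries.

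All 12 receptors and co-receptors were tested: FZD1 to FZD10, LRP5 and LRP6. None passed in any contrast in the edgeR fit without the block. At an unadjusted p under 0.05, 3 of the 12 were past the limit for temporal minus central, against 2759 of all 15910 gene models tested. For nasal minus central it was 4, against 4767, and for temporal minus nasal 1, against 2838. With the block FZD3 passed in both contrasts against the central region, and FZD7 for nasal minus central.

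FZD3, a receptor needed for the growth of axon tracts in mice, had 101.3, 107.2, 116.7, 81.2 and 98.3 CPM in the temporal libraries. The nasal libraries had 113.2, 81.1, 100.5, 89.1 and 86.8 CPM, against 79.9, 79.5, 89.3, 49.6 and 62.5 CPM in the central libraries. Regions overlapped, but in each replicate number the temporal and the nasal library lay above the central one (5 of 5 pairs for both). The log2 fold change was 0.48 for temporal minus central (edgeR adjusted p = 0.0505, and 0.00313 with the block) and 0.38 for nasal minus central (0.0747, and 0.00623 with the block). Leaving out central replicate 4 gave changes of 0.38 (adjusted p = 0.0872) and 0.28 (adjusted p = 0.140) for the same contrasts with no block. FZD3 passed in 7 of 24 alternatives for temporal minus central, DESeq2 and a minimum count of 30 among them, and in 3 for nasal minus central.

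FZD7 had 5.14, 7.08, 6.12, 5.66 and 5.99 CPM in temporal libraries. It had 7.62, 6.85, 5.81, 6.83 and 6.03 CPM in nasal libraries, against 3.45, 4.08, 4.44, 6.73 and 4.40 CPM in central libraries. Apart from central replicate 4, every central library was below every temporal and nasal one. For nasal minus central the log2 fold change was 0.52 (edgeR adjusted p = 0.0760, and 0.0494 with the block). When central replicate 4 was left out FZD7 rose in both contrasts, by 0.55 for temporal minus central (adjusted p = 0.0489) and by 0.69 for nasal minus central (adjusted p = 0.00525).

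FZD2, chosen here after its values were seen, showed the same dependence on 1 library. It had 18.1, 21.3, 17.4, 18.8 and 16.7 CPM in temporal libraries and 21.0, 16.3, 20.7, 17.3 and 17.9 CPM in nasal libraries, against 11.4, 10.8, 16.2, 30.8 and 12.1 CPM in central libraries. Central replicate 4 held the highest value of all 15 libraries, and the other 4 central libraries the lowest values. With all libraries the log2 fold changes were 0.19 for temporal minus central (edgeR adjusted p = 0.768) and 0.20 for nasal minus central (adjusted p = 0.618). Leaving out central replicate 4, FZD2 rose by 0.55 (adjusted p = 0.0195) and by 0.56 (adjusted p = 0.00755). With all libraries it also passed in limma-voom with quality weights (lowest adjusted p = 0.0112).

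FZD4, the receptor of Norrin in retinal vessels, had 9.81 CPM in central replicate 4 and 0.922 to 4.16 CPM in the other 14 libraries. The endothelial markers summed to 318.9 CPM in that library, against 164.2 to 227.6 CPM in temporal, 163.3 to 209.9 CPM in nasal and 183.2 to 200.2 CPM in the other central libraries. The periocular mesenchyme list summed to 2498 CPM there and to 185.2 to 1001 CPM in the other 14, and the cartilage and sclera list to 649.9 CPM there and to 182 to 375.7 CPM in the others. The part of these lists in the members' values was not tested. In bulk libraries a change in the share of a cell type and a change in RNA per cell cannot be told apart.

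FZD10 averaged 4.58 ± 0.69 CPM in temporal, 6.34 ± 1.48 CPM in nasal and 4.22 ± 0.96 CPM in central libraries (SD, n = 5 each). Its log2 fold change for nasal minus central was 0.59 (edgeR adjusted p = 0.0816), and 0.69 without central replicate 4 (adjusted p = 0.0292). FZD10 also passed with DESeq2 (lowest adjusted p = 0.0492), with limma-voom (0.0200) and in edgeR without nasal replicate 4 (0.0450). FZD1, FZD4, FZD5, FZD6, FZD8 and FZD9 passed neither with nor without the block.

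For some core components the data bound the difference to within 0.5 on the log2 scale. That limit is wider than some changes that passed, such as 0.37 for AXIN1 for nasal minus central. The 95% intervals of the log2 fold change lay within ±0.5 in all 3 contrasts for 6 members, AXIN2, FZD1, FZD6, LRP5, LRP6 and ZNRF3, which were chosen here for that property after their values were seen. LRP6, the co-receptor essential for beta-catenin signaling, averaged 83.6 ± 7.2, 84.4 ± 5.3 and 82.0 ± 8.5 CPM in temporal, nasal and central libraries (SD, n = 5 each), and its interval for temporal minus central ran from -0.16 to 0.22. FZD6 averaged 30.4 ± 2.9, 30.9 ± 2.6 and 28.8 ± 1.1 CPM in the same order (SD, n = 5 each). These members may still differ by less than their intervals allow.

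LRP5, the co-receptor mutated in familial exudative vitreoretinopathy, varied little between libraries of 1 region. It had 36.7, 38.8, 38.4, 36.7 and 38.3 CPM in temporal libraries. Nasal libraries had 32.3, 31.5, 33.7, 35.0 and 33.0 CPM, against 32.3, 30.2, 34.5, 34.8 and 34.5 CPM in central libraries. Every temporal library exceeded every nasal and central one, yet the log2 fold changes were small, 0.18 for temporal minus central (edgeR adjusted p = 0.268) and 0.19 for temporal minus nasal (adjusted p = 0.236). Regions did not overlap for 6 of 38 members for temporal minus central (15.8%, against 7.29% of all gene models), 4 for nasal minus central (10.5%, against 13.3%) and 3 for temporal minus nasal (7.89%, against 9.13%).

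Of the 13 gene models of secreted antagonists, 8 were tested. WIF1 passed in both contrasts against the central region, and SFRP1 for nasal minus central. The block added DKK3 (ANOSAT000829) and SFRP2 (ANOSAT013021) in both of these contrasts, NOTUM for nasal minus central and SFRP1 for temporal minus nasal.

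WIF1, which binds WNT proteins outside the cell, had 20.6, 14.8, 17.5, 22.04 and 26.6 CPM in temporal libraries. Its nasal libraries had 27.4, 18.4, 27.3, 21.6 and 24.7 CPM, against 32.6, 28.7, 30.3, 46.2 and 40.9 CPM in central libraries. All central libraries were above all temporal and nasal libraries, and the temporal and nasal libraries overlapped. WIF1 fell by 0.81 on the log2 scale for temporal minus central (SE 0.17, edgeR adjusted p = 0.00618) and by 0.58 for nasal minus central (SE 0.17, adjusted p = 0.0239). The temporal call held in all 24 alternatives. The nasal call was lost without nasal replicate 2, nasal replicate 4, central replicate 4 or central replicate 5, with a highest adjusted p of 0.0708, and without central replicate 4 the change was -0.47 (adjusted p = 0.0540).

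SFRP1, a soluble protein with a Frizzled-like WNT-binding domain, had 13.4, 18.2, 15.4, 11.1 and 14.8 CPM in temporal libraries. Nasal libraries had 10.6, 9.06, 10.6, 4.50 and 5.76 CPM, against 18.4, 22.6, 27.7, 10.1 and 22.3 CPM in central libraries. Nasal libraries were the lowest, and only central replicate 4 reached into their range. In nasal libraries SFRP1 was 2.5-fold lower than in central libraries (log2 fold change -1.32, SE 0.26, edgeR adjusted p = 0.00135), a call kept in all 24 alternatives. For temporal minus nasal the log2 fold change was 0.85, with no overlap between the regions, and the adjusted p was 0.0610 (0.00200 with the block, 0.0168 without central replicate 4). For temporal minus central it was -0.47 (adjusted p = 0.375). The lens marker list was also lowest in the nasal region, at 13.6 to 22.7 CPM in temporal, 4.88 to 8.37 CPM in nasal and 11.99 to 25.3 CPM in central libraries. Of its 13 gene models 5 had too few reads to be tested. The nasal mean was the lowest for 6 of the 8 tested ones and the central mean for 2. The temporal mean was the highest for 6 of the 8 and the central mean for 2, whereas SFRP1 was highest in central libraries. In edgeR 2 of the 8 fell for nasal minus central. BFSP2 alone averaged 5.35 ± 1.22, 2.06 ± 0.70 and 10.2 ± 3.5 CPM in temporal, nasal and central libraries (SD, n = 5 each). The part of this list in the SFRP1 values was not tested.

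SFRP2 carried 2 gene models, and RefSeq lists a single SFRP2 gene. Whether the 2 models are parts of 1 gene or different genes under 1 symbol was not tested. The model with more reads (ANOSAT013021) had 119.4, 92.7, 129.7, 129.8 and 105.6 CPM in temporal libraries. Nasal libraries had 81.5, 92.3, 109.5, 155.8 and 99.8 CPM, against 52.8, 39.1, 83.4, 124.6 and 75.8 CPM in central libraries. Within each replicate number the central library was the lowest, although the regions overlapped. The log2 fold change was 0.62 for temporal minus central (edgeR adjusted p = 0.151, and 0.00327 with the block) and 0.52 for nasal minus central (0.146, and 0.00591 with the block). In the fit that left out central replicate 4, SFRP2 rose by 0.88 (adjusted p = 0.0117) and by 0.78 (adjusted p = 0.0115). The other model (ANOSAT009138) averaged 2.11 ± 0.66, 2.94 ± 0.83 and 1.95 ± 1.32 CPM in temporal, nasal and central libraries (SD, n = 5 each) and passed in no contrast. SFRP1 and SFRP2 (ANOSAT013021) thus had opposite signs against the central region, with values outside the rule for named members given for SFRP2 after they were seen.

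DKK3 (ANOSAT000829), a divergent member of the Dickkopf family, had 83.0, 78.7, 71.8, 102.6 and 100.1 CPM in temporal libraries. Nasal libraries had 75.1, 91.2, 74.8, 105.2 and 111.2 CPM, against 98.9, 111.5, 105.1, 148.5 and 156.4 CPM in central libraries. Replicates 4 and 5 were the highest in each region, and in each number the central library was the highest. The log2 fold change was -0.51 for temporal minus central (edgeR adjusted p = 0.0525, and 0.000175 with the block) and -0.44 for nasal minus central (0.0524, and 0.000216 with the block). Without central replicate 4 and with no block they were -0.43 (adjusted p = 0.113) and -0.37 (adjusted p = 0.109). This model passed in 8 of 24 alternatives for temporal minus central and in 9 for nasal minus central. DESeq2 and a minimum count of 30 were among them in both contrasts. A second DKK3 model (ANOSAT014262) had 28 reads in all, and RefSeq lists a single DKK3 gene.

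NOTUM, the enzyme that removes the lipid from WNT proteins, had 2.37, 3.62, 2.81, 4.25 and 2.60 CPM in temporal libraries. Nasal libraries had 2.52, 2.34, 3.45, 2.28 and 5.0 CPM, against 1.5, 1.41, 1.44, 0 and 1.32 CPM in central libraries. No central library reached a temporal or nasal one. The log2 fold change was 1.45 for temporal minus central (edgeR adjusted p = 0.116, and 0.0669 with the block) and 1.44 for nasal minus central (0.0611, and 0.0458 with the block). Without central replicate 4, where NOTUM had 0 reads, it rose by 1.15 (SE 0.29, adjusted p = 0.0170) and by 1.14 (SE 0.28, adjusted p = 0.00792).

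DKK2, an antagonist that binds LRP6, averaged 2.45 ± 0.54 CPM in temporal, 1.81 ± 0.62 CPM in nasal and 3.72 ± 2.23 CPM in central libraries (SD, n = 5 each). Its lowest edgeR adjusted p was 0.0772, for nasal minus central (log2 fold change -1.03). Central replicates 3 and 4 held its highest values, 5.55 and 6.67 CPM. DKK2 passed with DESeq2 (lowest adjusted p = 0.0431) and in edgeR without central replicate 5 (lowest adjusted p = 0.0421). DKK1, the antagonist best known for inducing the head in frogs, passed in no contrast and averaged 1.11 ± 0.55, 0.952 ± 0.283 and 0.968 ± 0.294 CPM in temporal, nasal and central libraries (SD, n = 5 each). The untested antagonists were DKK4 (11 reads), SFRP4 (44), SFRP5 (15), DKKL1 (49) and the second DKK3 model. SFRP5 had 12 reads in temporal libraries, 1 in nasal and 2 in central libraries. KREMEN2, a cell-surface receptor for DKK proteins, was tested with 170 reads and averaged 0.581 ± 0.176, 0.703 ± 0.209 and 0.353 ± 0.256 CPM in temporal, nasal and central libraries (SD, n = 5 each); its lowest adjusted p was 0.302.

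**Figure D3:**
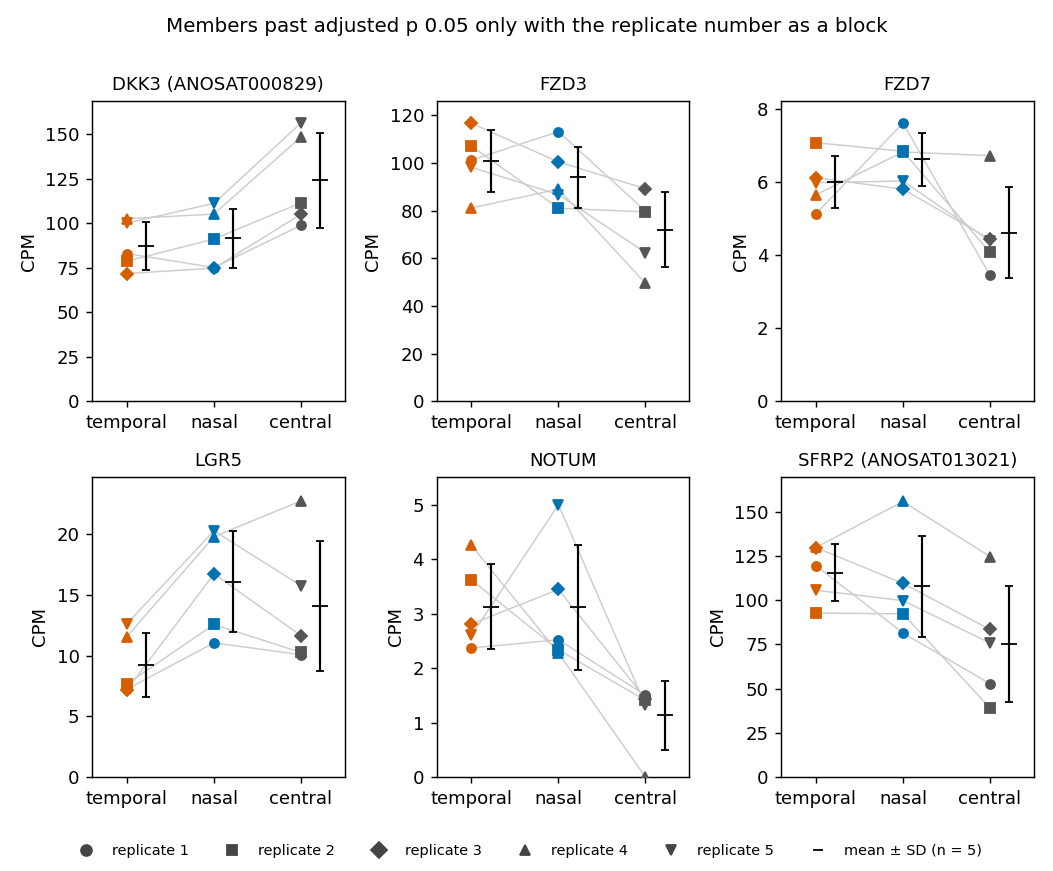
CPM of 6 members (y axis, from 0) in the temporal, nasal and central libraries (x axis). They passed an adjusted p of 0.05 with the replicate number as a block, but not in the edgeR fit of all 15 libraries without it. Points are libraries, with a shape for each replicate number and grey lines between libraries of the same number, and bars are the mean ± SD (n = 5). Lines of DKK3 run upward to the central libraries in each number, and lines of SFRP2 and NOTUM run downward to them.

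The R-spondin axis, from the secreted R-spondins to their receptors and the ligases, had 7 gene models, of which RSPO2, LGR4, LGR5, LGR6 and ZNRF3 were tested. RSPO2, a secreted enhancer of WNT signals, had 0.922, 1.23, 0.625, 1.22 and 0.950 CPM in temporal libraries. Nasal libraries had 1.18, 1.34, 0.936, 0.794 and 0.715 CPM, against 3.17, 1.85, 2.55, 2.69 and 3.76 CPM in central libraries. Every central library lay above all temporal and nasal libraries, which overlapped each other. RSPO2 was 2.80-fold lower in temporal than in central libraries (log2 fold change -1.49, SE 0.34, edgeR adjusted p = 0.0105) and 2.82-fold lower in nasal than in central libraries (-1.49, SE 0.34, adjusted p = 0.00421). These values rest on 105, 106 and 272 reads in the temporal, nasal and central libraries. Both calls held in all 24 alternatives.

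LGR4, the R-spondin receptor with the broadest expression in mammals, had 42.2, 46.3, 50.1, 49.9 and 53.5 CPM in temporal libraries. Nasal libraries had 40.8, 52.2, 53.2, 58.4 and 54.8 CPM, against 32.8, 30.4, 42.2, 30.5 and 38.6 CPM in central libraries. Temporal replicate 1 and central replicate 3 were nearly level, and nasal replicate 1 lay below central replicate 3. LGR4 rose by 0.47 on the log2 scale for temporal minus central (SE 0.12, edgeR adjusted p = 0.0212) and by 0.57 for nasal minus central (SE 0.12, adjusted p = 0.00220). The nasal call held in all 24 alternatives, and the temporal call was lost without temporal replicate 4, temporal replicate 5, central replicate 1 or central replicate 2 (highest adjusted p = 0.0829).

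LGR5, known as a stem cell marker in the mammalian gut, had 7.25, 7.68, 7.19, 11.6 and 12.6 CPM in temporal libraries. Nasal libraries had 11.1, 12.6, 16.7, 19.8 and 20.3 CPM, against 10.1, 10.3, 11.7, 22.8 and 15.8 CPM in central libraries. Replicates 4 and 5 were again high in each region, and within each number the temporal library was the lowest. The log2 fold change was -0.79 for temporal minus nasal (edgeR adjusted p = 0.0708, and 0.000889 with the block) and -0.60 for temporal minus central (0.208, and 0.00982 with the block). Without central replicate 4 and with no block they were -0.79 (adjusted p = 0.0249) and -0.36 (adjusted p = 0.478). LGR4 and LGR5 thus ranked the regions differently, and the difference between the 2 receptors was not tested.

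LGR6 averaged 0.892 ± 0.263, 0.519 ± 0.257 and 1.15 ± 0.68 CPM in temporal, nasal and central libraries (SD, n = 5 each), with a lowest edgeR adjusted p of 0.256. Central replicate 4 had 0 reads for it, and without that library LGR6 was lower in nasal than in central libraries (log2 fold change -1.44, adjusted p = 0.0161). ZNRF3, a ligase that removes Frizzled receptors from the cell surface, averaged 33.7 ± 3.9, 36.3 ± 5.2 and 32.4 ± 3.4 CPM in temporal, nasal and central libraries (SD, n = 5 each). The related ligase RNF43 had 27 reads and RSPO1 had 126 reads over the 15 libraries, too few to be tested. RSPO3 and RSPO4 are named in RefSeq, but no gene model of the counts used here carried either symbol, so their levels are not known.

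Of the nuclear factors, TCF7L1, TCF7L2 and LEF1 were tested and none passed. TCF7L2 averaged 13.3 ± 1.6, 12.2 ± 1.0 and 10.9 ± 1.8 CPM in temporal, nasal and central libraries (SD, n = 5 each), with a lowest edgeR adjusted p of 0.317. TCF7L1, which mostly represses targets, averaged 8.42 ± 1.43, 6.69 ± 0.69 and 7.68 ± 2.53 CPM in the same order (SD, n = 5 each). LEF1 averaged 1.92 ± 0.29, 1.28 ± 0.58 and 1.26 ± 0.76 CPM (SD, n = 5 each), the central mean including 0 reads in central replicate 4. TCF7 had 97 reads and was not tested.

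AXIN1 and AXIN2 scaffold the destruction complex, and AXIN2 is a widely used target gene of beta-catenin. AXIN1 had 27.8, 38.5, 30.7, 30.8 and 37.6 CPM in temporal libraries. Nasal libraries had 49.6, 47.7, 41.6, 37.7 and 43.9 CPM, against 30.2, 38.1, 29.0, 36.6 and 36.5 CPM in central libraries. Nasal libraries were the highest in each replicate number, and only nasal replicate 4 overlapped the other regions. AXIN1 fell by 0.41 on the log2 scale for temporal minus nasal (SE 0.12, edgeR adjusted p = 0.0498) and rose by 0.37 for nasal minus central (SE 0.12, adjusted p = 0.0405). Both calls were close to the threshold and were lost in 12 and 10 of 24 alternatives, with highest adjusted p-values of 0.128 and 0.101. With the block they were 0.0110 and 0.0112. Leaving out temporal replicates 1, 3 or 4, nasal replicates 1, 2, 3 or 5, or central replicates 1, 2 or 5 ended the temporal minus nasal call. The nasal minus central call ended without temporal replicates 3, 4 or 5, nasal replicates 1, 2, 3 or 5, or central replicates 1 or 3. The retinal neuron list summed to 2102 to 2276 CPM in temporal, 2496 to 2695 CPM in nasal and 2004 to 2189 CPM in central libraries, but its genes did not move one way. In edgeR 4 of its 10 tested gene models rose for nasal minus central (both OTX2 models, ISL1 and NEUROD1) and 2 fell (POU4F2 and ELAVL4). OTX2 (ANOSAT015847) alone averaged 931.8 ± 37.3, 1242 ± 90 and 853.1 ± 51.2 CPM in temporal, nasal and central libraries, whereas POU4F2, a marker of ganglion cells, averaged 107.6 ± 4.1, 89.4 ± 8.9 and 153.6 ± 37.9 CPM (SD, n = 5 each). The part of these genes in the AXIN1 values was not tested. AXIN2 averaged 27.4 ± 4.0, 26.4 ± 3.4 and 27.4 ± 6.3 CPM in temporal, nasal and central libraries (SD, n = 5 each), and its log2 fold change for temporal minus central was 0.00 with a 95% interval from -0.33 to 0.33.

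Marker lists of other tissues were set beside the members, since the dissected pieces hold several cell types. The ciliary margin list summed to 61.3 to 68.1 CPM in temporal, 63.6 to 91.1 CPM in nasal and 39.8 to 60.2 CPM in central libraries. All central libraries were thus below all temporal and nasal ones, as they were for WNT5B and NOTUM, and RSPO2 and WIF1 ran the other way. Of its 7 gene models 5 were tested, while both MSX1 models had too few reads. In edgeR 2 rose for temporal minus central (ZIC1 and ZIC2) and 3 for nasal minus central (these and OTX1). CPAMD8 and WFDC1, which had the highest means of the list, passed in neither contrast. WFDC1 averaged 21.1 ± 1.3, 29.7 ± 4.7 and 22.5 ± 5.2 CPM in temporal, nasal and central libraries (SD, n = 5 each). The pigment epithelium list summed to 2076 to 2554 CPM in temporal, 1750 to 2105 CPM in nasal and 1779 to 2963 CPM in central libraries. Of its 12 tested gene models 2 rose and 1 fell for temporal minus central in edgeR. For nasal minus central 2 rose and 2 fell. TTR (ANOSAT011075) averaged 310.3 ± 53.5, 276.6 ± 31.6 and 79.3 ± 19.6 CPM in temporal, nasal and central libraries (SD, n = 5 each). RLBP1 ran the other way, with 267.3 ± 43.2, 207.3 ± 11.8 and 506.0 ± 132.4 CPM (SD, n = 5 each).

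Among the optic nerve and astroglia markers, PAX2 and GFAP were highest in the central libraries, as RSPO2 and WIF1 were. The central mean was the highest for 12 of the 38 tested members and for 35% of all gene models tested. AQP4 (ANOSAT011067) was nearly level in nasal and central libraries, with 37.3 ± 6.5, 43.5 ± 4.1 and 43.5 ± 7.8 CPM in temporal, nasal and central libraries (SD, n = 5 each). PAX2, a transcription factor of the optic stalk and disc, averaged 0.437 ± 0.223 CPM in temporal, 0.184 ± 0.088 CPM in nasal and 29.0 ± 5.9 CPM in central libraries (SD, n = 5 each), and fell by 6.01 on the log2 scale for temporal minus central (edgeR adjusted p = 2.75e-10) and by 7.29 for nasal minus central (adjusted p = 5.70e-11). GFAP, an intermediate filament of glia, averaged 360.5 ± 33.7, 122.6 ± 31.8 and 551.8 ± 49.9 CPM in the same order (SD, n = 5 each) and fell by 0.61 (adjusted p = 0.0156) and by 2.17 (adjusted p = 1.60e-08). SLC1A3, a glutamate transporter of glia, rose in both contrasts, so the sum of the list, at 2129 to 2581 CPM in temporal, 1518 to 1732 CPM in nasal and 1424 to 1999 CPM in central libraries, did not follow PAX2 and GFAP.

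The ventral retina list, like the ciliary margin list, was lower in all central libraries than in the others, with 402.8 to 449.1 CPM in temporal, 415.7 to 505.4 CPM in nasal and 311 to 370.6 CPM in central libraries, and 5 of its 7 gene models rose for nasal minus central. Of the 4 gene models of the dorsal retina list, 2 rose for temporal minus central and 3 for nasal minus central in edgeR. No ventral gene model passed for temporal minus central. The dorsal list summed to 448.6 to 601.9, 497.8 to 633.9 and 351.2 to 528 CPM in temporal, nasal and central libraries. Skeletal muscle markers summed to 12.7 to 23.4, 11.3 to 17.9 and 10.04 to 16.02 CPM in the same order, and blood markers to 408.7 to 1654, 230.5 to 1247 and 459.3 to 992.6 CPM. The part of any of these lists in the members' results was not tested.

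**Figure D4:**
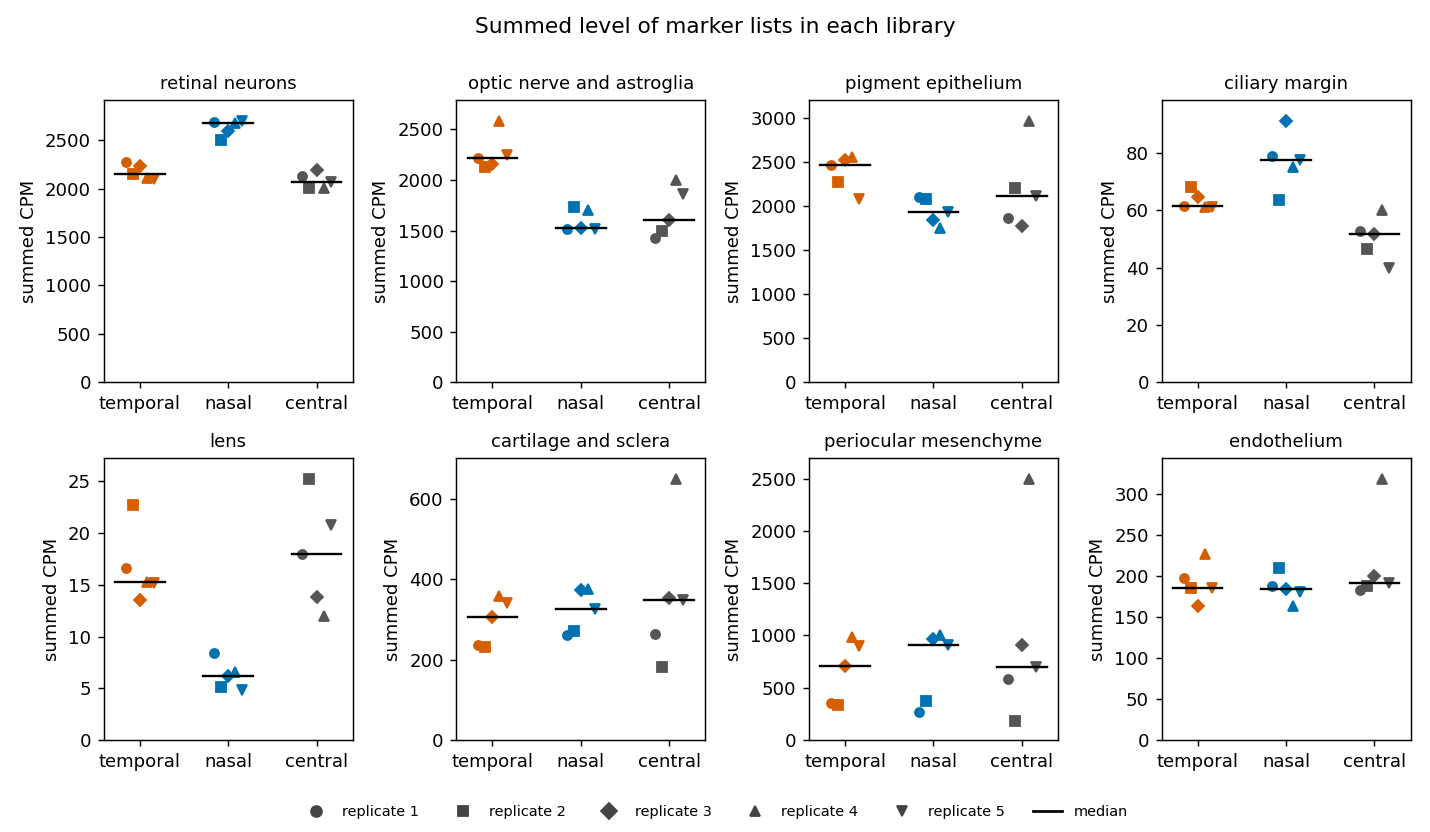
Summed CPM of 8 marker lists (y axis, from 0) in the temporal, nasal and central libraries (x axis). Points are libraries, with a shape for each replicate number, and black lines are medians; central replicate 4 reaches 2498 CPM for periocular mesenchyme, above the other 14 libraries, and the nasal libraries are the lowest for lens. Single genes of a list can differ from its sum, as PAX2 and GFAP do from optic nerve and astroglia, and POU4F2 and ELAVL4 from retinal neurons.

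Other genes of the pathway were taken from a list of 82 symbols, of which 78 were found on 95 gene models and 86 gene models were tested. The list was drawn up with earlier results of these data known, so the shares below describe it and test nothing. In edgeR 12 of 86 passed for temporal minus central (14%, against 6.78% of all gene models), 7 higher and 5 lower. For nasal minus central 30 passed (34.9%, against 18.4%), 20 higher and 10 lower, and for temporal minus nasal 6 passed (6.98%, against 6.59%), 1 higher and 5 lower. With the block 21 passed for temporal minus central (24.4%, against 12.7% of all gene models), 35 for nasal minus central (40.7%, against 27.9%) and 12 for temporal minus nasal (14%, against 13.9%). When central replicate 4 was left out and no block was used, 11 of 87 passed for temporal minus nasal (12.6%, against 9.24%). By function, 8 of 16 gene models of other receptors and co-receptors passed for nasal minus central, where 18.4% of all gene models passed. So did 6 of 14 of planar cell polarity, 7 of 18 of other inhibitors, 4 of 10 of nuclear cofactors and 2 of 21 of the cytoplasmic relay. GPC3, DAAM1 and DACT2 each passed with 2 gene models, so 1 gene may be counted more than once.

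DACT2 (ANOSAT002560), an adaptor that binds Dishevelled, had the lowest adjusted p of the list. It averaged 61.0 ± 6.2 CPM in temporal, 76.4 ± 9.3 CPM in nasal and 13.8 ± 2.2 CPM in central libraries (SD, n = 5 each), with log2 fold changes of 2.15 for temporal minus central (edgeR adjusted p = 3.77e-09) and 2.47 for nasal minus central (adjusted p = 3.14e-10). A second DACT2 model (ANOSAT020963) averaged 4.97 ± 0.82, 8.15 ± 1.18 and 3.53 ± 0.59 CPM in the same order (SD, n = 5 each). Whether such models are parts of 1 gene was not tested. APC, the large scaffold of the destruction complex, averaged 697.8 ± 34.6, 795.6 ± 51.2 and 547.4 ± 32.1 CPM (SD, n = 5 each) and rose for nasal minus central by 0.54 (adjusted p = 2.24e-05). TLE1 (ANOSAT016504), a corepressor bound by TCF factors, rose by 0.80 (adjusted p = 2.47e-05). Another TLE1 model (ANOSAT003831), with more reads, did not pass for nasal minus central. It averaged 97.0 ± 10.1, 111.8 ± 4.7 and 99.5 ± 6.9 CPM in temporal, nasal and central libraries (SD, n = 5 each).

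Planar cell polarity genes among the lowest p-values were CELSR2 (ANOSAT009987) and CELSR1 (ANOSAT012782), which encode atypical cadherins, and DAAM1 (ANOSAT000139), a formin that Dishevelled activates. For nasal minus central they rose by 0.64 (edgeR adjusted p = 1.39e-05), 0.78 (adjusted p = 5.26e-05) and 0.63 (adjusted p = 2.54e-05) on the log2 scale. The cell-surface proteoglycans SDC4 and GPC6 went the other way. SDC4 fell by 0.73 for nasal minus central (adjusted p = 1.48e-05), with 34.4 ± 3.4, 29.6 ± 1.0 and 49.2 ± 2.8 CPM in temporal, nasal and central libraries (SD, n = 5 each). GPC6 fell by 0.82 for nasal minus central (adjusted p = 7.04e-05) and was 0.55 higher for temporal minus nasal (adjusted p = 0.00821). The other DAAM1 model also passed for nasal minus central, but other models of CELSR1 and CELSR2 did not. CELSR1 (ANOSAT018614) averaged 15.65 ± 3.10, 16.63 ± 6.09 and 15.5 ± 4.4 CPM in temporal, nasal and central libraries (SD, n = 5 each). CELSR2 (ANOSAT018615) averaged 197.9 ± 28.6, 194.6 ± 44.5 and 175.0 ± 37.3 CPM in the same order (SD, n = 5 each).

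**Figure D5:**
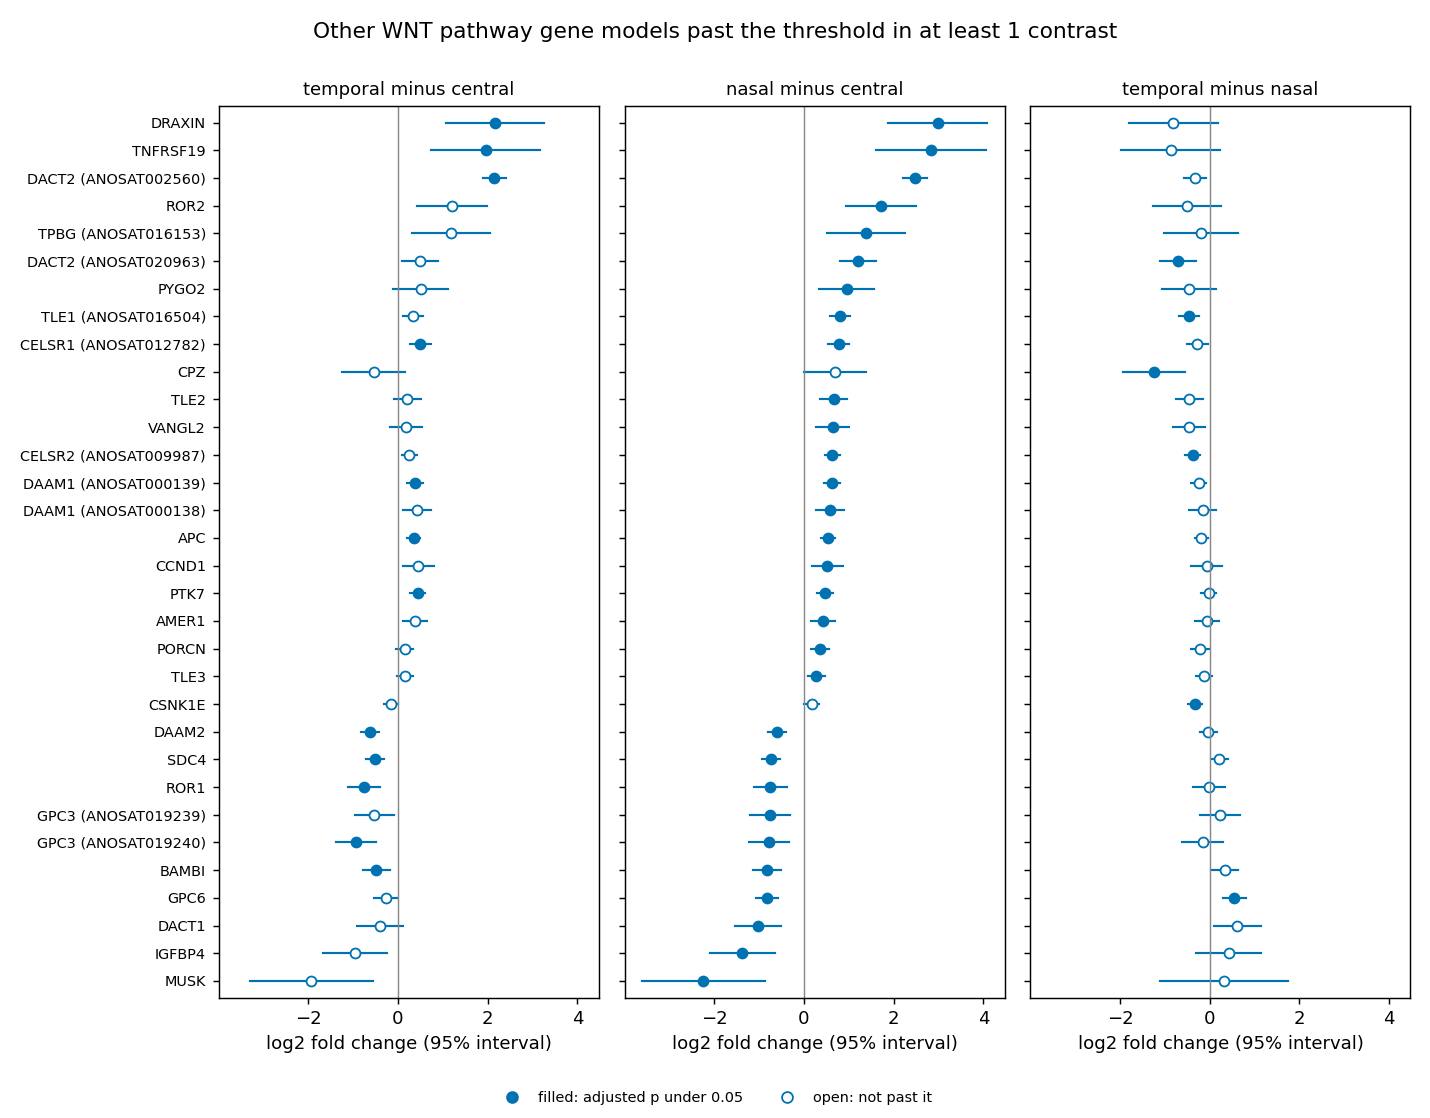
Log2 fold change (x axis, the same scale in each panel) with its 95% interval for the gene models of the other WNT pathway list that passed an adjusted p of 0.05 in at least 1 contrast (y axis, sorted by nasal minus central). Filled points passed in that contrast; 12 are filled for temporal minus central, 30 for nasal minus central and 6 for temporal minus nasal, with the widest range for nasal minus central.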

How the data were processed

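Libraries were made from total RNA with a stranded mRNA kit and sequenced by Illumina. As deposited by the authors, the values are raw read counts, 1 for every gene model and library, beside a gene symbol. The submitters' processing notes name HISAT2 2.2.1 and featureCounts, whereas counting settings and strand use are not given in those notes, so reads of overlapping or antisense genes cannot be told apart. The deposited table ends without a line end, and gene models after its last line were not analysed here. Members and lists were chosen with earlier results of these data known.

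Counts of all 15 libraries (308347029 reads) were filtered with filterByExpr by region (minimum count 10), scaled with TMM and fitted in 1 robust quasi-likelihood model in edgeR 4.0.16 (R 4.3.3). Benjamini-Hochberg adjustment ran over 15910 gene models, and the script was tested on simulated data. Each SE was taken as the absolute log2 fold change over the square root of the F statistic of the quasi-likelihood test. Intervals are at 95% and used these SEs with t quantiles. Every member past the threshold was named with values per library, and untested members with their reads. Up to 3 others a role group and 8 pathway gene models, those with the lowest adjusted p, were given with values. Values of FZD2, FZD4, FZD6, LRP5, LRP6, DKK1 and SFRP2 were added outside this rule, with the results known. Levels are CPM of counted reads with the TMM factors applied to the read totals. RefSeq gave names and neighbors only, and 53 of 55 member symbols matched it. Plots used Python 3.11.15 and matplotlib 3.10.9.

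Replicate numbers 1 to 5 come from the sample titles, and no source says what they share. The log2 CPM deviations from region means correlated above 0.1 for each of the 15 same-number pairs (0.193 to 0.524), against 3 of the 60 other pairs (-0.339 to 0.256), so the numbers were taken to pair the samples. Between libraries of a region the chi-square per degree of freedom was 10.4 to 67.6, so none repeats another. Alternatives were RLE and upper-quartile scaling, DESeq2 1.42.0, limma-voom with quality weights (limma 3.58.1), no filter, a minimum count of 30, only the 2 regions compared, the replicate block, each library left out in turn, and, chosen after seeing the data, the block without central replicate 4. Sums of a pair of the 15 marker lists are not reported here.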

Additional observations from a re-analysis of the deposited data

Results flagged for a closer look

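The 5 libraries of each region were searched, for each of the 38 tested members, for a library far from the others by Dixon's test (critical value 0.71). Of 114 groups 5 were past that limit, where chance flags about 1 in 20 groups. Of these, 3 were in central replicate 4. NOTUM had 0 CPM there, against 1.32 to 1.5 CPM in the other central libraries. FZD4 had 9.81 CPM there, against 1.11 to 3.01 CPM, and FZD2 had 30.8 CPM, against 10.8 to 16.2 CPM. The other 2 concerned TCF7L2, which had 10.4 CPM in nasal replicate 2 (12.3 to 12.8 CPM in the other nasal libraries) and 14.1 CPM in central replicate 3 (9.72 to 10.3 CPM in the other central libraries).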

How the results depend on the processing

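No change of a member that passed with or without the replicate block reversed its sign in any of the 24 alternatives. RSPO2 in both contrasts against central, WIF1 for temporal minus central, and LGR4, WNT5B and SFRP1 for nasal minus central passed in each of them. Counts of members moved more, and the share of all gene models that passed, given here after each count, moved with them. For temporal minus central (3 of 38 in edgeR, against 6.78%), 8 passed with DESeq2 (9.46%), 6 with limma-voom (9.94%), 5 of 33 with the stricter filter (7.66%), 7 with the replicate block (12.7%) and 12 of 39 with the replicate block without central replicate 4 (14.1%). For nasal minus central (7 of 38, against 18.4%), 12 passed with DESeq2 (21.8%), 11 with limma-voom (29.2%), 12 with the replicate block (27.9%) and 17 of 39 with the block without central replicate 4 (31.7%). For temporal minus nasal (1 of 38, against 6.59%), 0 passed with upper-quartile scaling (6.59%) and 0 of 57 with no filter (4.64%). In edgeR 4 of 38 had an unadjusted p under 0.05, against 2838 of all 15910 gene models. In that contrast 3 passed with DESeq2 (9.52%), 4 with limma-voom (15.2%), 4 with the 2 regions alone (9.63%), 3 with the replicate block (13.9%) and 4 of 39 with the block without central replicate 4 (21%). Leaving out each library in turn gave 2 to 8, 5 to 11 and 0 to 4 members in these contrasts. Each highest count came without central replicate 4, where 7.36%, 20.6% and 9.24% of all gene models passed. Of the 86 other pathway gene models, 12 passed for temporal minus central in edgeR (14%, against 6.78% of all gene models). With the replicate block 21 passed (24.4%, against 12.7%), and 21 of 87 with the block without central replicate 4 (24.1%, against 14.1%). For temporal minus nasal 6 passed in edgeR (6.98%, against 6.59%), 15 with limma-voom (17.4%, against 15.2%) and 12 with the block (14%, against 13.9%). It was 10 of 83 with the 2 regions alone (12%, against 9.63%) and 22 of 87 with the block without central replicate 4 (25.3%, against 21%). Leaving out a library gave 10 to 14 of these gene models for temporal minus central and 26 to 34 for nasal minus central. For temporal minus nasal it gave 4 to 11. At the highest count of each contrast, 7.46%, 20.6% and 9.24% of all gene models passed in the same order. With no filter WNT1 rose for nasal minus central (3.87 on the log2 scale, adjusted p = 0.0395, on 23 nasal reads and 1 central read). Depth limits the 19 untested members and those near 1 CPM. Central replicate 4 limits members with few reads, and leaving it out also moved calls of members with many. Examples are FZD2 (5404 reads), WIF1 (8095 reads) and SFRP2 (ANOSAT013021, 30051 reads). Except where stated, the cause was not tested.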
